A study of Sus scrofa with 23 samples.

Results

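The genes described here encode mitochondrial ribosomal proteins, and their mRNA was measured in 23 pigs, in the Longissimus, a muscle that runs along the back. Probes were taken where the array's gene name was MRPL or MRPS with a number, or where the array's description held such a symbol in parentheses or the words "mitochondrial ribosomal protein". The rule found 17 genes, with 32 of the array's 43603 probes, to which 5103 gene symbols could be matched. There were 21 probes of 10 large-subunit genes and 11 probes of 7 small-subunit genes. RefSeq lists 77 pig genes with such symbols, so the probes covered a minority of the family. Residual feed intake (RFI) is the feed an animal eats beyond what its growth and maintenance account for. The first group held 7 pigs of the low-RFI strain (RFIneg) that fed ad libitum, and the second 8 pigs of the high-RFI strain (RFIpl) that fed ad libitum. The third group held 8 restricted high-RFI pigs (RFIplR), whose feed was held to the level of the low-RFI pigs. All weighed 115 kg, and 1 array was hybridised for each pig. Low-RFI and high-RFI pigs therefore differed in line and in feeding level, restricted and high-RFI pigs in feeding level within the high-RFI line, and low-RFI and restricted pigs in line at the same feeding level.

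Mitochondria carry their own ribosome, which translates the few mRNAs of the mitochondrial genome, all of them for subunits of the respiratory chain and ATP synthase. Its RNA comes from the mitochondrial genome, while all of its proteins, most of them named MRPL in the large and MRPS in the small subunit, are encoded in the nucleus, made in the cytosol and imported. Skeletal muscle depends on this machinery because most subunits of its oxidative enzymes are nuclear and have to be matched with those made inside the organelle.

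Levels are log2 signals relative to the 75th percentile of each array, so 1 unit is a 2-fold difference and a level of 0 lies at that percentile; levels of different probes are not comparable. Between 41.7% and 79.0% of probes lay well above background on each array. All 3 groups were on each of the 6 slides. The 4 arrays of slide 3 had shares from 41.7% to 58.9%. Of 10 muscle fibre markers 8 were on the array, and all 8 were well above background on all arrays. In bulk muscle, fewer cells of a type and less RNA per cell cannot be told apart.

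Of the 32 probes, 30 probes of 15 genes were bright enough to test, a limit that asked for at least 6 arrays of 1 group well above background. Of these, 29 were well above background on all 23 arrays. The probe of MRPL43 that starts at base 926 of its target lacked a value in restricted pig 3, and its fit rested on 22 pigs. The MRPL1 probe was well above background on 15 arrays, 5 in each group. The MRPS23 probe was so on 1 array, in the high-RFI group. Neither was tested.

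No member passed the threshold of an adjusted p of 0.05 in any comparison (limma with Benjamini-Hochberg adjustment over 27788 probes). Between low-RFI and high-RFI pigs 0 of 30 probes were called, against 0.122% of all probes, and the lowest adjusted p was 0.404. Between restricted and high-RFI pigs 0 of 30 were called, against 0.0036% of all probes, with a lowest adjusted p of 0.306. Between low-RFI and restricted pigs 0 of 30 were called, against 0.162%, with a lowest adjusted p of 0.410. The limma F test over the 3 groups called 0 of 30, against 0.137% of all probes, with a lowest adjusted p of 0.301. At an unadjusted p under 0.05, limma took 2, 5 and 2 of the 30 probes in the 3 pairwise comparisons, in the order given, against 11.1%, 9.76% and 10.2% of all probes. In the F test it took 3 of 30, against 12.5%. These shares of members were 6.67%, 16.7%, 6.67% and 10% of 30 probes that belong to only 15 genes. The 3 pairwise comparisons share pigs, so their counts are not separate evidence.

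The intervals show which differences the data still allow. Over all 30 probes and the 3 comparisons, the farthest bound of a 95% interval lay at 0.75 on the log2 scale, a 1.68-fold difference, on a probe of MRPL14. Without MRPL14 the farthest bound was 0.70, a 1.62-fold difference, for MRPL24 in restricted against high-RFI pigs. A difference of 2-fold lay outside every interval. In the comparison of low-RFI with high-RFI pigs the bounds of the 27 probes of genes other than MRPL14 ran from -0.40 to 0.40.

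**Figure D1:**
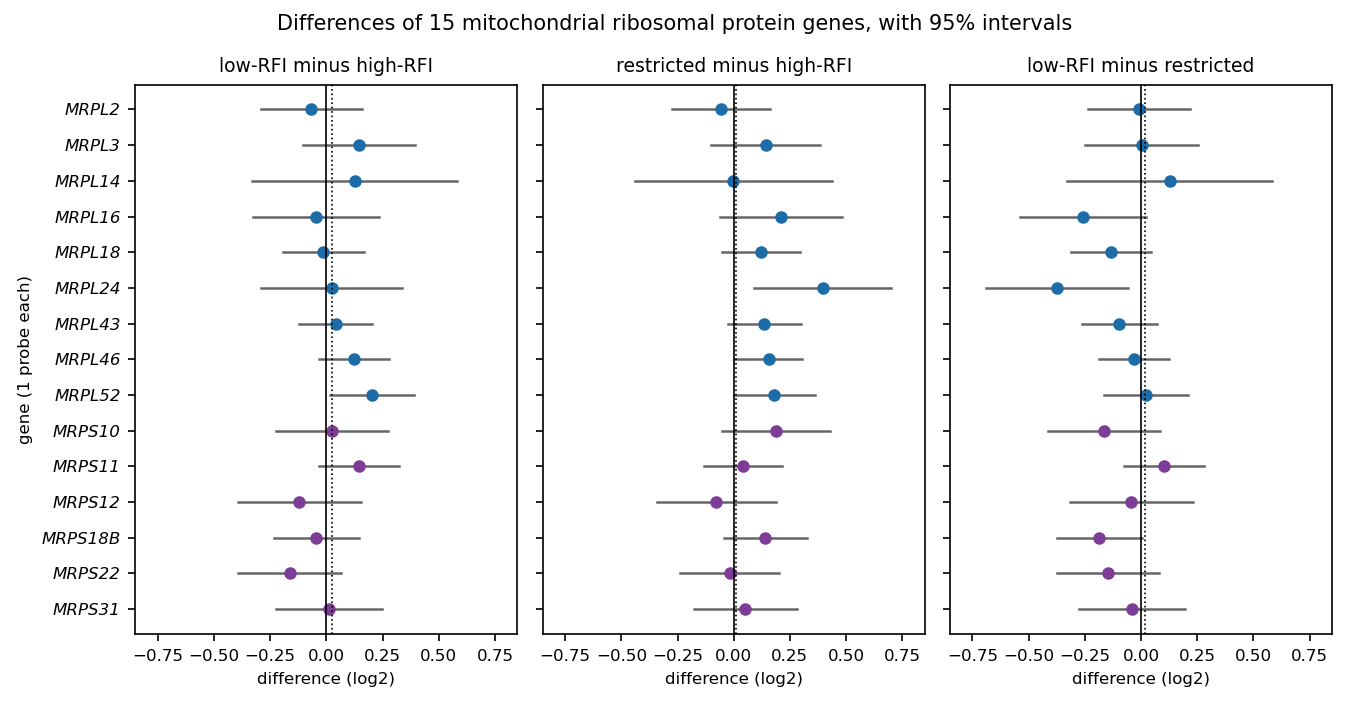
Difference in level (log2, x axis) for the brightest probe of each of 15 genes (y axis), in 3 comparisons; points are fitted differences, lines their 95% intervals, blue the large and purple the small subunit, and the dotted line the median of all tested probes. The interval of MRPL24 lies above 0 in restricted against high-RFI pigs (0.09 to 0.70) and below 0 in low-RFI against restricted pigs, and most other intervals include 0.

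In restricted against high-RFI pigs, 24 of 30 probes had a positive difference, compared with 53.1% of all probes. The median difference was 0.084, and that of all tested probes 0.012. Counted once per gene by the brightest probe, 11 of 15 genes were positive with a median of 0.14. The large subunit gave 7 of 9 genes and a median of 0.14, and the small subunit 4 of 6 genes and a median of 0.046. Each pig's median deviation over the 30 probes from the probes' own means lay between -0.15 and 0.27 in the restricted group, with a median of 0.12. In the high-RFI group it lay between -0.13 and 0.081, with a median of -0.018. Of the 8 restricted pigs 5 lay above the highest high-RFI pig, while the lowest of all 23 pigs was also a restricted pig, so the groups overlapped. The restricted pigs of slide 3 lay at -0.0037 and -0.15, and restricted pig 7 of slide 5 at -0.10. On slide 3 the high-RFI pig lay at -0.13, and the low-RFI pig was the highest of its group at 0.15. Without the arrays of that slide, a fit added after the data were seen, the median difference of the probes was 0.15. Leaving out restricted pig 4 gave the highest median difference of any fit without 1 pig, 0.13, and leaving out restricted pig 1 the lowest, 0.054. Over the other settings it ran from 0.034 with normexp background correction to 0.16 with array weights.

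In low-RFI against high-RFI pigs 20 of 30 probes had a positive difference, compared with 55.3% of all probes, and the median was 0.024, beside 0.025 over all tested probes. By gene, 9 of 15 were positive, 6 of 9 in the large and 3 of 6 in the small subunit. In low-RFI against restricted pigs 22 of 30 had a negative difference, compared with 45.3% of all probes, with a median of -0.042 against 0.020 over all probes. That median was 0.0041 within scan day 1, -0.12 within scan day 2 and -0.12 without slide 3. Median deviations per pig in the low-RFI group ran from -0.079 to 0.15, within the range of the restricted pigs.

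MRPL24, a large-subunit protein whose bacterial relative takes part in the early assembly of the subunit, showed the largest differences. Its probes do not overlap. They are printed because their differences had the same sign in each comparison. The first is given over its 60 bases and the second by its last 30 bases. Capitals mark AATAAA, the letters of the polyadenylation signal.
MRPL24, probe at base 459: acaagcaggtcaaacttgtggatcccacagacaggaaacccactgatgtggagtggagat
MRPL24, probe at base 785: cctcttcttcagatgctAATAAAgagcctt
On the probe at base 785 the level ran from 4.96 to 5.77 with a median of 5.38 in the restricted pigs. It ran from 4.60 to 5.37 with a median of 5.01 in the high-RFI pigs. In the low-RFI pigs it ran from 4.57 to 5.44 with a median of 5.15. The restricted group held the highest levels, and its lower pigs lay among those of both other groups. The mean of the restricted pigs (5.40 ± 0.27, SD, n = 8) exceeded that of the high-RFI pigs (5.01 ± 0.30, SD, n = 8) by 0.40 (SE 0.15), a 1.32-fold difference, with an unadjusted p of 0.0133 and an adjusted p of 0.346 in limma. The probe at base 459 gave 0.35 (SE 0.12), with an adjusted p of 0.306 in limma. Low-RFI pigs differed from restricted pigs by -0.37 (SE 0.15) on the brighter probe, with an adjusted p of 0.410 in limma, and from high-RFI pigs by 0.023 (SE 0.15). A pair of dimmer probes assigned to MRPL24 but outside the rule did not both repeat this. They gave -0.18 and 0.27 in restricted against high-RFI pigs, and -0.10 and 0.0084 in low-RFI against restricted pigs. Only the second had the sign of the member probes in the former comparison, and only the first in the latter. On the brighter probe the restricted pigs lay 0.25 above the high-RFI pigs within scan day 1 and 0.54 within scan day 2. The sign was the same on 5 of 6 slides. Without each pig in turn the difference stayed between 0.34 and 0.46.

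**Figure D2:**
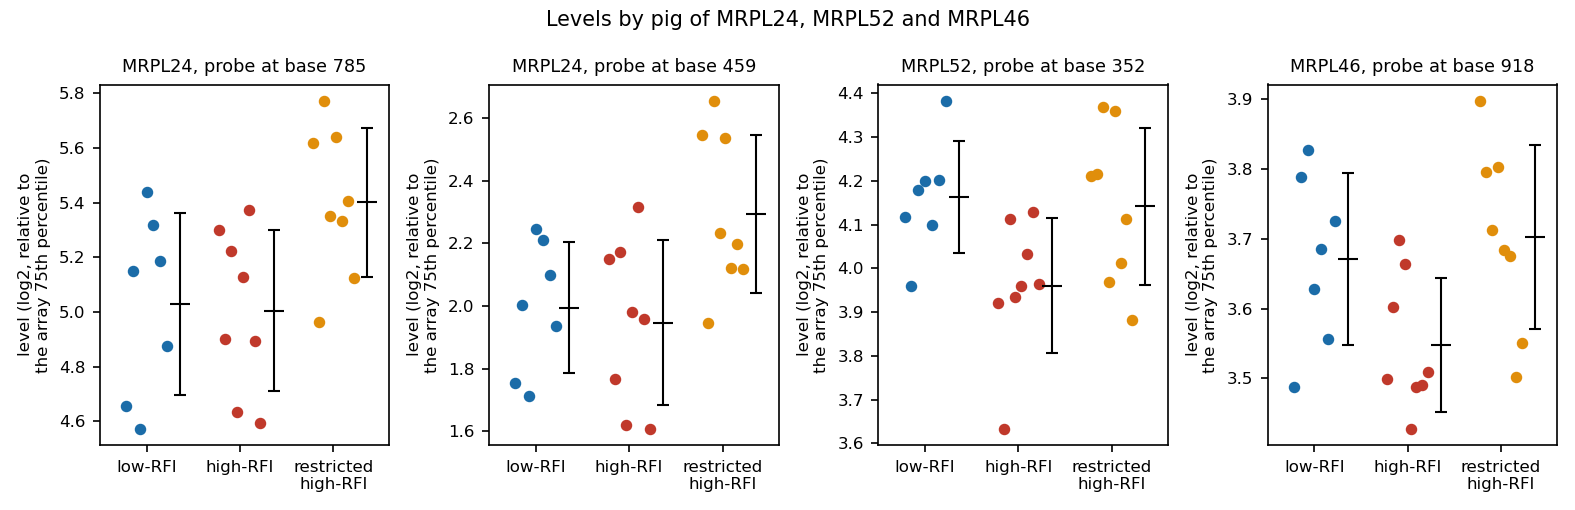
Level of MRPL24 (2 probes), MRPL52 and MRPL46 (y axis, log2 relative to the array's 75th percentile) in each pig of the 3 groups (x axis); each point is a pig, and the bar gives the mean ± SD of the group. On the first MRPL24 probe the restricted pigs sit between 4.96 and 5.77 and overlap the high-RFI pigs, which sit between 4.60 and 5.37.

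Over the 23 pigs the named probes most like the brighter MRPL24 probe were those of ANXA7 (Pearson's r = 0.65), HDGF (r = 0.62), PKIA (r = 0.61 on both of its probes) and BUB3 (r = 0.61). HDGF lies 1 place from MRPL24 in RefSeq's gene order. These are descriptions over the same 23 arrays, which share each pig's sample and array, and they rank highest among all named probes by construction.

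MRPL52, a large-subunit protein with no bacterial counterpart, had the lowest unadjusted p in low-RFI against high-RFI pigs. A pair of its probes covers nearly the same bases, and the targets they were designed on differ in length by a base within a run of A, shown in capitals in the stretch where it lies.
MRPL52, probe at base 351: caaccaagtcaataaaaagcActcctgtct
MRPL52, probe at base 352: caaccaagtcaataaaaagcAActcctgtc
On the probe at base 352 the level ran from 3.96 to 4.38 with a median of 4.18 in low-RFI pigs. It ran from 3.63 to 4.13 with a median of 3.96 in high-RFI pigs, and from 3.88 to 4.37 with a median of 4.16 in restricted pigs. The high-RFI pigs were the lower group, and all 3 groups overlapped. Low-RFI pigs exceeded high-RFI pigs by 0.20 (SE 0.090; 95% interval 0.016 to 0.39), a 1.15-fold difference, with an unadjusted p of 0.0344 and an adjusted p of 0.404 in limma. The difference was 0.30 within scan day 1 and 0.090 within scan day 2. Restricted pigs exceeded them by 0.18 (SE 0.087), with an adjusted p of 0.508 in limma. Both differences are measured against the same high-RFI pigs, of which pig 2 was the lowest at 3.63. Without that pig they were 0.16 and 0.13. The other probe of the pair gave 0.20 and 0.19. The remaining probe, dimmer, at base 712 and clear of these bases, gave 0.12 (SE 0.13) and 0.042 (SE 0.13).

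MRPL46, another large-subunit protein specific to mitochondria, had the smallest spread of all members. Its within-group SD was 0.117, lower than in all but 1.73% of tested probes. The level ran from 3.50 to 3.90 with a median of 3.70 in restricted pigs, from 3.43 to 3.70 with a median of 3.50 in high-RFI pigs, and from 3.49 to 3.83 with a median of 3.68 in low-RFI pigs. The high-RFI pigs gathered at the low end, with 5 of 8 at or below 3.51, and the groups overlapped. The lowest high-RFI pig, at 3.43, lay below all pigs of both other groups. Restricted pigs exceeded high-RFI pigs by 0.15 (SE 0.072; 95% interval 0.0051 to 0.30), with an adjusted p of 0.491 in limma and the same sign on 6 of 6 slides. The last 30 bases of its probe are given because they too hold AATAAA, in capitals.
MRPL46, probe at base 918: aaactatattctgagaAATAAAcacgtttg
AATAAA stood in 5 of the 32 member probes (15.6%) and in 9.6% of all probes of the same length. The 5 include the pair of MRPL52 probes over nearly the same bases. The reverse complement TTTATT was in 0 of the member probes and in 1820 of all 43603 probes. MRPS11, a small-subunit protein, lies next to MRPL46 in RefSeq's order, and within groups the levels of both correlated at r = 0.42 over 23 pigs. The MRPS11 level had a median of 2.28 in low-RFI pigs (2.11 to 2.48), 2.16 in high-RFI pigs (1.95 to 2.28) and 2.11 in restricted pigs (2.02 to 2.46). Its low-RFI mean exceeded the high-RFI mean by 0.14 (SE 0.086), with an adjusted p of 0.567 in limma.

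Among the remaining large-subunit genes, MRPL16 had a median of 4.01 in restricted pigs (3.73 to 4.24), 3.84 in high-RFI pigs (3.04 to 4.23) and 3.75 in low-RFI pigs (3.43 to 4.03). High-RFI pig 2 lay far below the rest of its group at 3.04, and the difference of restricted from high-RFI pigs was 0.21 (SE 0.13) with this pig and 0.10 (SE 0.11) without it. Within scan day 1 it was 0.34 and within scan day 2 0.082. Low-RFI against restricted pigs gave -0.26 (SE 0.14), with an adjusted p of 0.531 in limma, and the same difference with an SE of 0.11 and an adjusted p of 0.389 when high-RFI pig 2 was left out of the joint fit. MRPL18, which in mammals also binds 5S rRNA, was measured by 4 probes, of which 3 overlap. Restricted pigs exceeded high-RFI pigs on all 4, by 0.070 to 0.13, and low-RFI pigs differed from high-RFI pigs by -0.014 to 0.0035. The brightest probe gave 0.12 (SE 0.084), with an adjusted p of 0.695 in limma. MRPL43, specific to mitochondria, gave 0.14 (SE 0.078) for the same comparison, with an adjusted p of 0.598 in limma. MRPL3 and MRPL2 are counterparts of bacterial proteins that lie near the peptidyl transferase centre. MRPL3 was 0.14 (SE 0.12) higher in low-RFI than in high-RFI pigs, and MRPL2 differed there by -0.067 (SE 0.11), with adjusted p of 0.723 and 0.882 in limma. Leaving out 1 pig moved MRPL3 to between 0.090 (without high-RFI pig 1) and 0.22 (without low-RFI pig 4), and MRPL2 to between -0.10 (without high-RFI pig 5) and -0.0024 (without high-RFI pig 3).

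The small-subunit genes had no probe with an unadjusted p under 0.05 in a pairwise comparison. MRPS18B, a relative of a bacterial small-subunit protein, gave the lowest, an unadjusted p of 0.0543 and an adjusted p of 0.50 in limma. Its median was 0.40 in restricted pigs (0.21 to 0.79), 0.29 in high-RFI pigs (0.22 to 0.54) and 0.34 in low-RFI pigs (0.048 to 0.44), and low-RFI pigs lay -0.19 (SE 0.092) from restricted pigs, a difference of -0.057 within scan day 1 and -0.32 within scan day 2. MRPS10 gave 0.19 (SE 0.12) in restricted against high-RFI pigs, with an adjusted p of 0.632 in limma, and 0.12 without high-RFI pig 8. Against restricted pigs the low-RFI pigs lay at -0.17 (SE 0.12), a difference of -0.33 within scan day 1 and 0.0056 within scan day 2. MRPS22, specific to mitochondria, was the member with the most negative difference in low-RFI against high-RFI pigs, -0.16 (SE 0.11), with an adjusted p of 0.626 in limma. MRPS12, which belongs to the decoding centre, gave -0.12 (SE 0.13) there, with an adjusted p of 0.809 in limma, and -0.046 without high-RFI pig 3. MRPS31, specific to mitochondria, had 5 probes that share no more than 1 base at their ends, and all 15 of its differences lay between -0.057 and 0.059. The members with the highest and the lowest difference of this subunit in low-RFI against high-RFI pigs were MRPS11 and MRPS22. Their probes are printed whole. Each has at least 1 reading frame free of stop codons, which 25 of the 32 member probes have.
MRPS11, probe at base 560: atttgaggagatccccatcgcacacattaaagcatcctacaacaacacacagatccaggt
MRPS22, probe at base 793: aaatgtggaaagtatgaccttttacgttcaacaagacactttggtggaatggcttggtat

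MRPL14, a large-subunit protein at the interface with the small subunit, varied most from pig to pig. It was measured by 3 separate probes, of which the first is printed because a pig's low level is read from it and from both others alike.
MRPL14, probe at base 478: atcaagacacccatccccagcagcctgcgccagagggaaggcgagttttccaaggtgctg
On that probe the level ran from 3.38 to 4.74 with a median of 4.60 in high-RFI pigs. It ran from 3.37 to 4.95 with a median of 4.64 in restricted pigs, and from 4.18 to 4.89 with a median of 4.64 in low-RFI pigs. High-RFI pig 8 and restricted pig 4 stood apart at the low end, while the medians of the 3 groups were close. On the 3 probes high-RFI pig 8 lay 2.37-fold, 3.28-fold and 3.53-fold below the median of all pigs, and restricted pig 4 lay 2.38-fold, 3.13-fold and 3.06-fold below it. The lowest of the other 21 pigs was at 3.94, 2.04 and 2.20 on the probes at bases 478, 698 and 798, above both pigs on each. The levels of the 3 probes correlated at r = 0.94 to 0.99 over 23 pigs.

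Low-RFI pigs exceeded high-RFI pigs by 0.13 (SE 0.22) on the MRPL14 probe at base 478, with an adjusted p of 0.894 in limma, and without high-RFI pig 8 the difference was -0.026 (SE 0.19). Restricted pigs differed from high-RFI pigs by -0.0012 (SE 0.21), where each group held 1 of these pigs. The other 14 genes deviated less on the log2 scale. In high-RFI pig 8 their deviations from each gene's median over all pigs ran from -0.61 to 0.032 with a median of -0.15, and in restricted pig 4 from -0.14 to 0.51 with a median of 0.20. High-RFI pig 8 was thus low on many members, with 2 of the 15 genes above their own mean. Its MRPS10 level, at 1.74, was the lowest of all 23 pigs. High-RFI pig 5 also had 2 of 15 genes above their mean and restricted pig 8 had 1, while restricted pig 4 had 11. The 6 measured genes within 10 places of MRPL14 in RefSeq's order, with 16 probes, deviated by -0.54 to 0.52 in these pigs, less than MRPL14 itself (-1.24 to -1.82). The arrays of both pigs were on slides 4 and 6, with 58.2% and 64.1% of probes well above background, and both were scanned on scan day 2. On the probe at base 478, low-RFI minus high-RFI was -0.092 within scan day 1 and 0.38 within scan day 2.

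**Figure D3:**
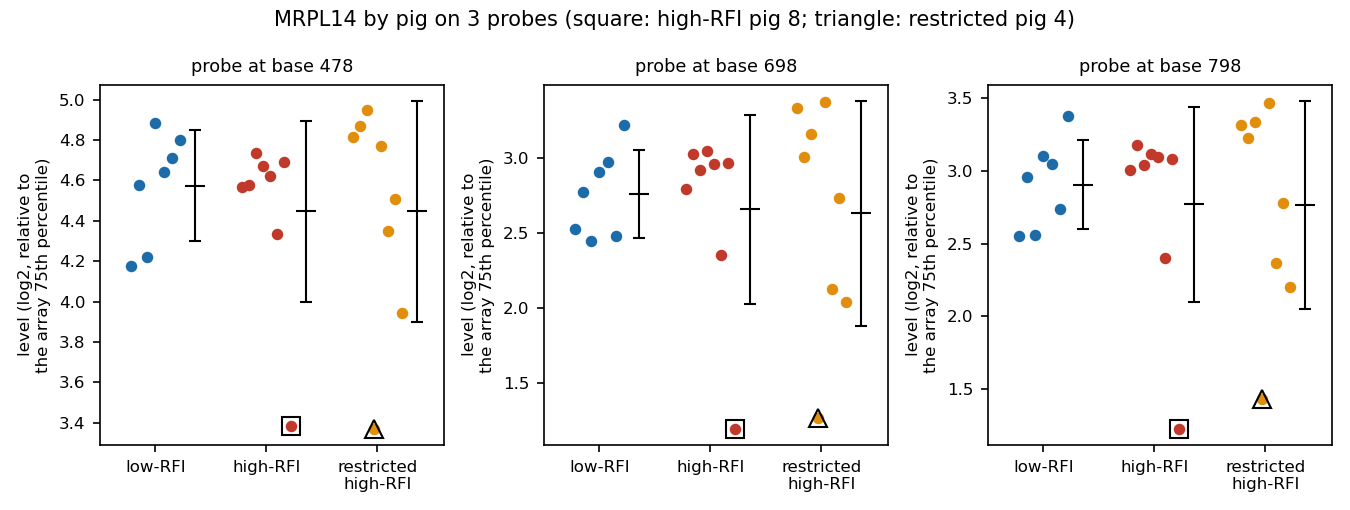
Level of MRPL14 on 3 probes (y axis, log2 relative to the array's 75th percentile) in each pig of the 3 groups (x axis); points are pigs and bars the mean ± SD. High-RFI pig 8 (square) and restricted pig 4 (triangle) are the 2 lowest pigs on each probe, at 3.38 and 3.37 on the first.

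Several genes were measured more than once, which gave a measure of the error of a single probe. MRPL3 was measured by a pair of probes with the same 60 bases, of which the last 30 are given.
MRPL3, both probes at base 1428: atttgggggctttgttgtttcttttttaac
They correlated at r = 0.75 over 23 pigs, with an SD of their difference of 0.17. In low-RFI pig 2 the pair read 2.59 and 3.36, a gap of 0.77, and the next largest gap was 0.29. Over the other 22 pigs r was 0.90 and the SD 0.10. The overlapping MRPL52 probes agreed more closely (r = 0.98, SD of the difference 0.031). The separate MRPL24 probes gave r = 0.97 with an SD of 0.097, close to the SD of the MRPL3 pair over the 22 pigs. The 10 pairs of MRPS31 probes gave r from 0.87 to 0.97. In the 4 cases where probes of a gene differed in sign within a comparison (MRPL18, MRPL43 and MRPS31 in low-RFI against high-RFI pigs, and MRPL3 in low-RFI against restricted pigs), the differences lay between -0.064 and 0.041 and no unadjusted p was under 0.05.

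**Figure D4:**
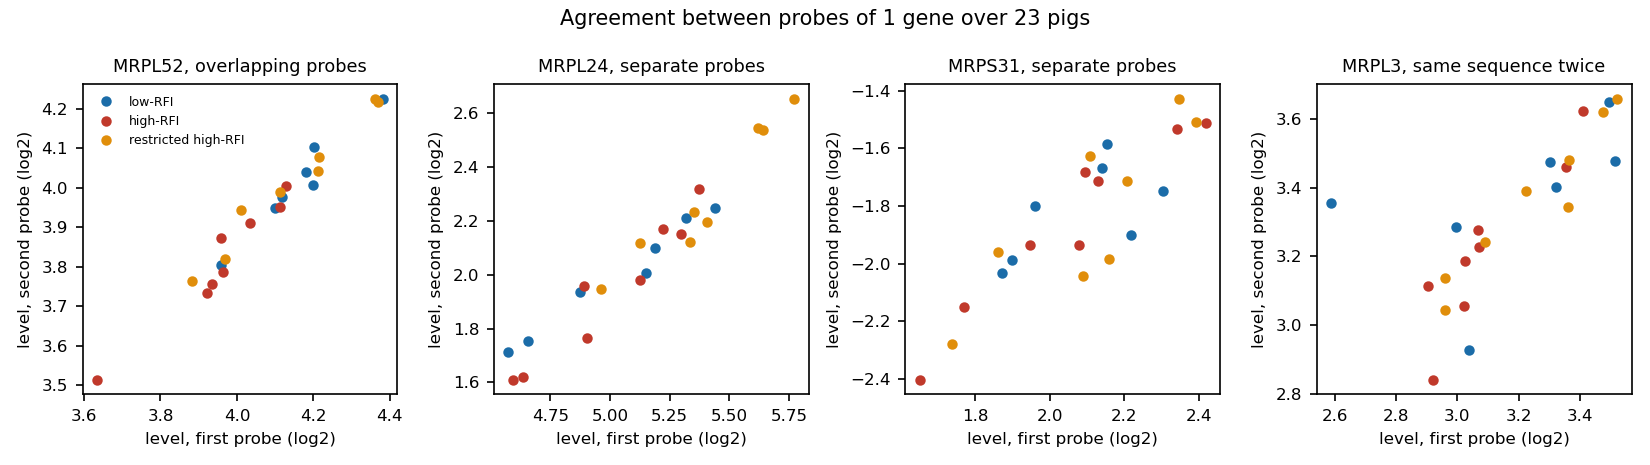
Level on the second probe (y axis, log2) against that on the first (x axis, log2) for 4 pairs of probes of the same gene; each point is a pig, coloured by group. The MRPL3 pair, whose probes have the same sequence, shows 1 low-RFI pig off the line (2.59 against 3.36), while the MRPL24 and MRPL52 pairs lie along a line.

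The members varied less between pigs than most probes. Their within-group SD had a median of 0.21 over the 30 probes, and that of all tested probes was 0.30. Nearly all member probes were well above background on every array, which the filter did not ask of all tested probes. Probes of like brightness were not compared. The 3 MRPL14 probes, at 0.44 to 0.60, were the highest. Between genes the levels went together weakly. Over the 105 pairs of the 15 genes, within groups, r had a median of 0.21 and ran from -0.29 to 0.78, and 81 pairs were above 0. The highest were MRPL2 with MRPS12 (r = 0.78), MRPL46 with MRPS31 (r = 0.73) and MRPL18 with MRPL43 (r = 0.65). These levels come from the same 23 arrays and share their scaling.

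Another 20 probes of 14 mitoribosome genes are described by the ribosome's older subunit names or only through a gene ID or accession, and were outside the rule. Of these, 16 were bright enough, and they added 8 genes. None passed the threshold, and the lowest adjusted p in the 3 comparisons were 0.237, 0.441 and 0.286 (limma). In restricted against high-RFI pigs 7 of the 8 added genes were positive with a median of 0.090. In low-RFI against high-RFI pigs 4 of 8 were positive, with a median of -0.039. A pair of them was assigned to MRPL24 and gave -0.18 and 0.27 in restricted against high-RFI pigs, with limma adjusted p of 0.822 and 0.565, so these did not repeat each other. MRPL33 had the largest difference. Its level ran from -0.64 to 0.93 with a median of 0.45 in low-RFI pigs and from -1.46 to 0.40 with a median of -0.54 in high-RFI pigs. The groups overlapped, and the difference of 0.91 (SE 0.29) had an adjusted p of 0.237 in limma. MRPL49 differed by -0.32 (SE 0.11) in low-RFI against restricted pigs, with an adjusted p of 0.286 in limma.

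Few other genes of mitochondrial translation could be measured by symbol, and none passed the threshold in any comparison. They were 2 of 11 mitoribosome proteins with other names (DAP3 and CHCHD1), 2 of 16 translation factors, 2 of 30 genes of tRNA charging, 2 of 34 of ribosome assembly and 3 of 18 of mitochondrial transcription and its regulators. All 3 of the last list had positive differences in restricted against high-RFI pigs and negative ones in low-RFI against restricted pigs. TFAM, which packages and transcribes the mitochondrial genome, was 2.52 ± 0.20 (SD, n = 8) in restricted and 2.21 ± 0.063 (SD, n = 8) in high-RFI pigs, a difference of 0.31 (SE 0.092) with a limma adjusted p of 0.202. PPARGC1A, a coactivator of mitochondrial biogenesis, was 1.49 ± 0.30 (SD, n = 7) in low-RFI and 2.81 ± 1.18 (SD, n = 8) in restricted pigs, a difference of -1.32 (SE 0.38) with a limma adjusted p of 0.200. RBFA, an assembly factor of the small subunit, was 0.30 (SE 0.11) higher in restricted than in high-RFI pigs, with a limma adjusted p of 0.347. SLIRP, which stabilises mitochondrial mRNA, differed by 0.13 (SE 0.072) in low-RFI against high-RFI pigs, with a limma adjusted p of 0.546.

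The cytosolic ribosome and the respiratory chain stood on either side of the mitoribosome in low-RFI against high-RFI pigs, by their medians. Of 36 cytosolic ribosomal protein genes 35 were positive with a median of 0.20. Of 31 nuclear genes of the respiratory chain and ATP synthase 24 were negative with a median of -0.12. The mitoribosome genes, with 9 of 15 positive and a median of 0.023, lay between them. This was close to all named genes, 1 probe each, of which 56.3% were positive with a median of 0.029. In restricted against high-RFI pigs the medians were 0.069 over 36 positive of 36, 0.0034 over 16 positive of 31 and 0.14 over 11 positive of 15. Of all named genes 55.9% were positive there, with a median of 0.021. No cytosolic ribosome, respiratory chain or mitoribosome gene of these lists passed the threshold in any comparison. Differences between the lists were not tested. Adipocyte markers also differed between the groups by their medians. All 5 measured were lower in low-RFI than in high-RFI pigs, with a median of -0.72 and none past the threshold, and their summed level ran from 4.04 to 5.59 in low-RFI, 4.21 to 6.95 in high-RFI and 4.18 to 6.17 in restricted pigs. Each of the 6 adipocyte markers on the array was well above background on at least 1 array. In the same comparison 7 of 8 muscle fibre markers were higher in low-RFI pigs (median 0.15). Of the leukocyte and endothelial markers 3 of 4 each were lower (medians -0.19 and -0.18). Fibroblast markers were higher in 2 of 4 (median 0.059) and Schwann cell markers in 1 of 2 (0.079). None of these passed the threshold. The part of any marker list in the differences of the mitoribosome genes was not tested.

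**Figure D5:**
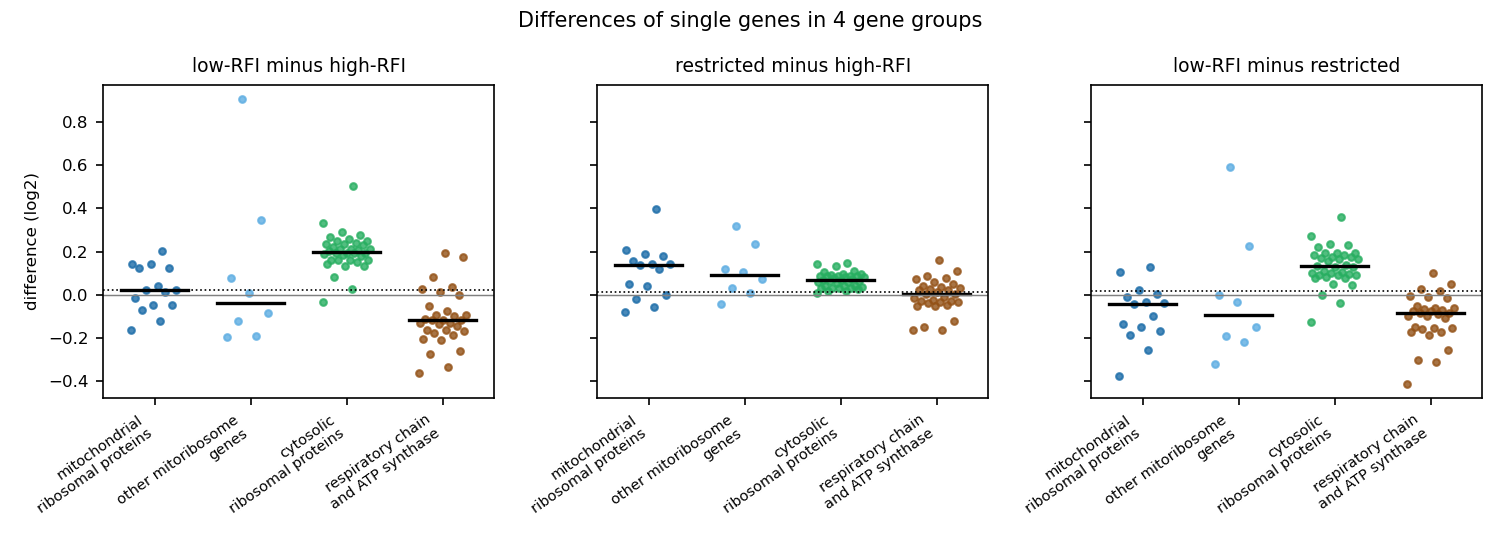
Difference in level (log2, y axis) of single genes, 1 probe each, in 4 gene groups (x axis) and 3 comparisons; each point is a gene, the thick line the median of the group and the dotted line the median of all tested probes. In low-RFI against high-RFI pigs the mitochondrial ribosomal proteins centre at 0.023, near the dotted line at 0.025. The cytosolic ribosomal proteins centre at 0.20 and the respiratory chain genes at -0.12.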

How the data were processed

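Total RNA of Longissimus muscle was labelled with Cy3 and hybridised to single-colour Agilent arrays, per the labels' protocols. Spot intensity was background-subtracted and detrended by Feature Extraction 10.7.3.1, per the file headers, and not scaled between arrays. The deposited log2 table (26410 probes) holds the same log2 signal shifted by an amount that is fixed within an array, with column medians of 0, and was used as an alternative. R 2.10.0 is named in the submitters' processing notes.

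The log2 processed signal of 43803 non-control spots was centred on each array's 75th percentile. Flagged outlier spots were set to missing, and spots of a probe were averaged. A filter kept 27788 probes: in at least 1 group, 6 or more arrays had to lie well above background. The 3 groups were fitted together with limma 3.58.1 in R 4.3.3, and p were adjusted over all kept probes. The number of arrays limits the precision. On simulated data the fit called 84, 83 and 80 of 100 probes given a change of 1 log2 unit in the 3 comparisons. Of 100 given 0.5 it called 31, 31 and 27. The changed probes were drawn from the 27329 kept probes without a missing value, with noise independent between probes. The within-group SD has a median of 0.30 over all kept probes and 0.21 over the member probes, so these rates are not those of the members.

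The members and lists were chosen with earlier results of these data known. A gene with several probes is represented by the brightest. Named were, in each comparison, the 8 member genes with the smallest p and, in the other lists, the 3 with the smallest p. MRPS31 and single pigs were named after their values were seen. Symbols came from the files and from RefSeq (Sscrofa11.1). The files name no genome build, so no coordinates are given. Probe sequences come from the array files, with positions counted along each probe's target.

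Alternatives were median centring, quantile normalization, normexp with an offset of 50, the deposited values, no filter and a filter on all arrays, trend and robust variance, array weights, slide or scan day as a block, the replicate number as a block, fits of 2 groups, a threshold of 0.01, gene means and leaving out each pig. Fits without slide 3 and within each scan day were added after the data were seen.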

Additional observations from a re-analysis of the deposited data

Results flagged for a closer look

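A pig was set apart where its gap to the nearest other pig of its group was a large share of the group's range (Dixon's criterion at the 95% level). It was applied to 45 sets of 7 or 8 pigs, for the named genes and for the median over members. Chance alone gives about 1 in 20, and 3 were found, all of them low values in the high-RFI group. MRPL14 in high-RFI pig 8 stood at 3.38 against a group median of 4.60, with the next pig at 4.34. MRPL16 in high-RFI pig 2 stood at 3.04 against a group median of 3.84. MRPL52 in high-RFI pig 2 stood at 3.63 against a group median of 3.96, on the brightest of its probes. No cause was tested.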

How the results depend on the processing

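The count of members past the threshold was 0 in all 3 comparisons and in the F test under each alternative that was run, and without each pig in turn it ranged from 0 to 0. The lowest adjusted p of a member in any of these limma fits was 0.212. A threshold of 0.01 could not give a higher count, and the fits within a scan day held fewer pigs. Their counts of 0 therefore add little. Under each alternative the median difference of the members moved from its reported value by less than 0.11, the SD between pigs of a group in their median over the members. Without each pig in turn it ranged from 0.0036 (without high-RFI pig 8) to 0.052 (without high-RFI pig 2) for low-RFI minus high-RFI, from 0.054 (without restricted pig 1) to 0.13 (without restricted pig 4) for restricted minus high-RFI, and from -0.085 (without restricted pig 7) to -0.022 (without restricted pig 1) for low-RFI minus restricted. Its sign turned within a scan day for low-RFI minus high-RFI (-0.0091 within scan day 2) and for low-RFI minus restricted (0.0041 within scan day 1). The SD of 0.11 is a spread of single pigs and larger in size than each reported median (0.024, 0.084 and -0.042). A move below it can therefore still turn the sign. The direction of a named gene turned 4 times: MRPL14 in low-RFI minus high-RFI pigs at -0.026 without high-RFI pig 8 (-0.026 to 0.19 without each pig in turn) and at -0.092 within scan day 1, and in low-RFI minus restricted pigs within scan day 2 MRPS10 at 0.0056 and MRPS11 at -0.00024. The cause was not tested.

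Of 22 same-numbered pairs of pigs from different groups, 7 had a correlation of deviations over 0.1. The median correlation was 0.048 for same-numbered pairs and -0.013 for pairs with other numbers. Whether the replicate number pairs the pigs was not tested. With the replicate number as a block 0 members passed, and the medians were 0.0019, 0.084 and -0.070 in the 3 comparisons.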
